A study of Homo sapiens with 17 samples.

Results

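Transcripts of 7 secreted vascular factors were followed across the 17 libraries of a study of 786-O cells, a line from a human clear cell kidney tumour in which VHL is not functional. The members were the rows of the deposited table whose gene symbol is VEGFA, VEGFB, VEGFC, PGF, ADM, ANGPTL4 or EDN1, and all 7 were found among 27315 genes. Cells carried lentiviral CRISPR guides from a vector with Cas9, in 2 experiments with separate controls. The HIF2a experiment held guides sg4 and sg6 against HIF2a (gene symbol EPAS1) and a scrambled guide, with 3 libraries each. The USP37 experiment held guides sg3 and sg9 against the deubiquitinase USP37, with 3 libraries each, and its own scrambled guide, with 2 libraries numbered 2 and 3. All groups therefore share the cell line, the lentiviral vector and drug selection. The labels do not say whether cells were pools or clones, nor whether replicates were separate cultures, and the p-values reflect the spread among the libraries given, which may be technical. The title of the series concerns removal of ubiquitin from HIF2a by USP37, and the comparisons ask how the transcripts of each member stood when either gene was targeted.

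As background, HIF2a is a transcription factor that pairs with ARNT and binds hypoxia response elements, and VHL normally marks it for degradation. Without VHL it accumulates in the presence of oxygen, and clear cell kidney tumours are known for a dense blood supply and for high VEGFA. VEGFA signals through the receptor KDR to drive vessel growth, VEGFB and placental growth factor (PGF) bind FLT1, and VEGFC acts mainly through FLT4 on lymphatic vessels. ADM encodes adrenomedullin, a peptide that widens vessels and keeps their lining tight, and EDN1 encodes endothelin 1, which constricts them. ANGPTL4 is a secreted inhibitor of lipoprotein lipase that also acts on vessels.

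Values are the authors' variance-stabilised, batch-corrected values on a log2-like scale whose floor lies at 5.14, and differences are in log2 units of that scale. The scale flattens towards the floor, so differences of weakly expressed genes are understated. The depth of the libraries is unknown. The filter kept genes with a mean at least 1 unit over the 1st percentile of all gene means, and 12484 genes were tested, all 7 members among them. A gene was called at a limma adjusted p under 0.05 over all tested genes. Of the targeted genes, EPAS1 was at 9.54 ± 0.14 with sg4, 10.34 ± 0.20 with sg6 and 11.91 ± 0.13 in their control (SD, n = 3 each). USP37 was at 8.33 ± 0.10 with sg3, 8.13 ± 0.14 with sg9 (SD, n = 3 each) and 9.24 ± 0.13 in its control (SD, n = 2). Each was also lower when the other was targeted. EPAS1 was lower with the USP37 guides (-0.72, SE 0.12, limma adjusted p = 6.6e-05), all 6 libraries below the control, as for 21.2% of tested genes. USP37 was lower with the HIF2a guides (-0.44, SE 0.12, limma adjusted p = 0.00903), where libraries overlapped. All 7 renal and clear cell carcinoma markers were above the filter, among them PAX8, a renal lineage factor, at group means of 12.21 to 12.88. These markers moved in different directions: 2 were called higher and 2 lower with the HIF2a guides, and 4 higher and 2 lower with the USP37 guides. CA12, a carbonic anhydrase, was at -1.42 with the HIF2a guides and -1.65 with the USP37 guides, and the cadherin CDH6 was at 1.31 with the HIF2a guides. The keratins KRT8 and KRT18 were at 0.70 and 0.66 with the USP37 guides, and PAX2 at -0.45. Of 8 endothelial markers 0 passed the filter, of 6 leukocyte markers CD68 alone passed, and of 6 markers of 293T, the line that packaged the virus, NEFL alone did. The 293T markers summed to 5.87 to 6.85 units above the floor with the targeting guides of both experiments and to 6.73 to 7.26 in the controls. NEFL made up most of that sum and was called lower in both experiments (-0.70 and -0.68), and its part in the results was not tested. The leukocyte markers summed to 4.67 to 5.65 with the HIF2a guides and 4.10 to 6.22 in their control, and to 5.28 to 6.07 with the USP37 guides and 5.73 to 7.98 in theirs. CD68 itself was called higher with the USP37 guides (0.45, limma adjusted p = 0.00106). PTPRC and CD3E, which did not pass the filter, went the other way. Their group means were 5.96 and 6.01 in the USP37 control, and 5.14, the floor, with sg3 and with sg9. The endothelial markers summed to 2.00 to 3.47 with the HIF2a guides and 1.95 to 2.21 in their control, and to 2.30 to 3.90 with the USP37 guides and 1.36 to 1.67 in theirs. PECAM1, an adhesion molecule of endothelium and leukocytes, was at 6.52 with sg4, 6.38 with sg6 and 5.71 in the HIF2a control. TIE1, an endothelial receptor, was at 6.53 with sg3, 6.45 with sg9 and 5.72 in the USP37 control. The defining markers CDH5 and VWF had group means no higher than 5.42, and EMCN was at the floor in every library. The part of these genes in the results was not tested. Libraries 2 and 3 of HIF2a sg6 and library 2 of the HIF2a control lay furthest from their group means, at root mean square deviations of 0.191, 0.188 and 0.150, against 0.0907 to 0.143 for the other 14 libraries.

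The DNA just upstream of 4 members is shown because they span the patterns described here: EDN1 and ADM were lower in both experiments, ANGPTL4 differed most between the controls, and VEGFC was higher with the USP37 guides. Each is the 250 bases before a start site annotated by RefSeq on GRCh38.p14, 5′ to 3′ on the strand of the gene, with matches to the HIF core letters in capitals. The letters searched were ACGTG and GCGTG on either strand, so that CACGT and CACGC are the same letters read from the other strand. For EDN1, which has 3 annotated windows, the third is printed, since bases 11 to 40 after its start site match the GENCODE transcript. Of the printed windows, that of VEGFC has such bases in 0 of the 2 GENCODE transcripts of the gene.
EDN1 (chr6:12290111-12290360, + strand): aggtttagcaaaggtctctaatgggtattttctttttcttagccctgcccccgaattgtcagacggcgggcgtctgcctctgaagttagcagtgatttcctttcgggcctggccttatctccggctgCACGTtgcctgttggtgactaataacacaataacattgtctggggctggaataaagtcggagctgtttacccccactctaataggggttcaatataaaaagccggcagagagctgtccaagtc
ADM (chr11:10304823-10305072, + strand): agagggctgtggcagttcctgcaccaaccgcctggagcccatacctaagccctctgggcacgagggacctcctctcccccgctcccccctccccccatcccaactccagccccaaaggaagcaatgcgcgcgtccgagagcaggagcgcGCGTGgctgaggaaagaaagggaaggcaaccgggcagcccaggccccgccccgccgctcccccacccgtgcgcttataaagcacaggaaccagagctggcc
ANGPTL4 (chr19:8363905-8364154, + strand): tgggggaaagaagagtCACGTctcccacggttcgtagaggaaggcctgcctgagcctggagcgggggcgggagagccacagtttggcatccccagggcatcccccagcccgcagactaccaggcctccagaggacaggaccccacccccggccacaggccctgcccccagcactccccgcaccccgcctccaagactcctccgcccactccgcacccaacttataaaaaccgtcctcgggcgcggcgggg
VEGFC (chr4:176792923-176793172, - strand): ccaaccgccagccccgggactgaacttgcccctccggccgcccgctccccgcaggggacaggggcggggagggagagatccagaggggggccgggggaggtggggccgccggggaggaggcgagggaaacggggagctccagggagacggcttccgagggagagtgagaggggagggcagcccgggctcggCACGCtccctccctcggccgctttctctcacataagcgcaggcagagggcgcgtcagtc
In EDN1 the match was ACGTG on the opposite strand, with its first printed letter 123 bases before the start site. ANGPTL4 held ACGTG on the opposite strand 234 bases before its start site. ADM held GCGTG 101 bases before its start site, and VEGFC held it on the opposite strand at 59 bases. VEGFB held GCGTG at 61 bases and the first of the PGF windows held it on the opposite strand at 162 bases. Entries were matched by symbol for 6 of the 7 members, all but VEGFA. These letters are common: ACGTG occurs in 18.5% and GCGTG in 32.2% of the 35116 promoter windows of this length. A match describes the letters alone and is not a measured binding site.

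**Figure D1:**
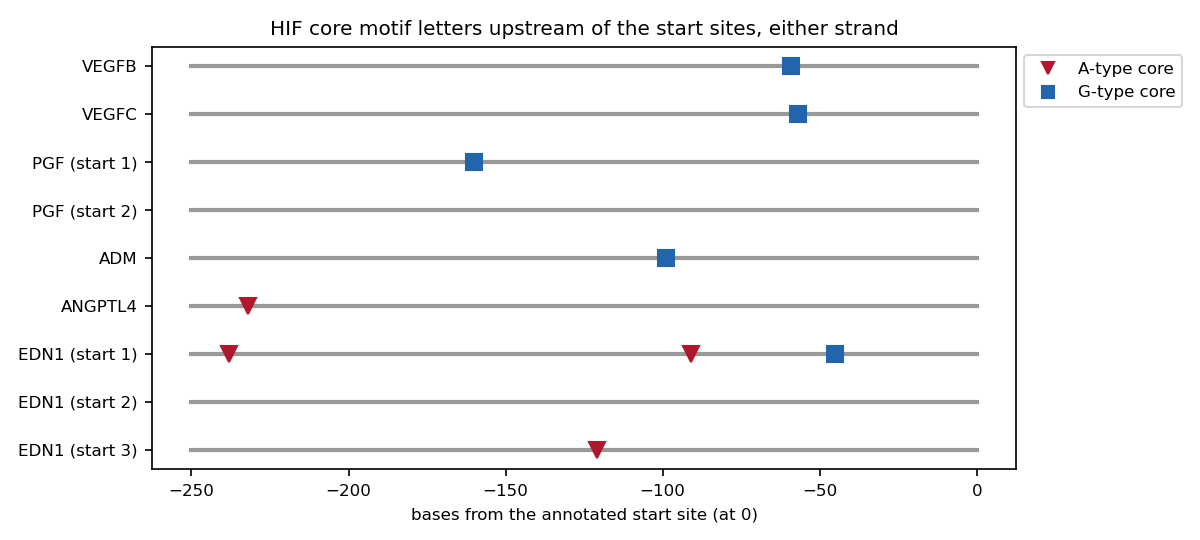
Positions of the core letters in the 250 bases before each annotated start site (x axis, bases from the start site at 0), for every promoter window of 6 members. Triangles mark the core beginning with A and squares the core beginning with G, on either strand; the printed EDN1 window is start 3, with its match 123 bases upstream, and start 2 of PGF and of EDN1 hold none.

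With the HIF2a guides, 4 of the 7 members were lower and 0 higher: ADM, EDN1, VEGFA and VEGFC. Over all tested genes 14.5% were called lower and 16.1% higher in this comparison. With the USP37 guides, 5 members were lower (EDN1, VEGFA, ADM, ANGPTL4 and PGF) and 1 was higher (VEGFC), where 21.9% of all genes were called lower and 22.4% higher. The median difference of the members was -0.33 with the HIF2a guides and -0.62 with the USP37 guides, beside medians near 0 over all tested genes (-0.0045 and 0.0060). By guide, 4 members were lower with HIF2a sg4 and 5 with sg6, where 12.1% and 13.8% of all genes were. With USP37 sg3, 5 were lower and 1 higher (18.4% and 16.8% of all genes), and with sg9, 4 were lower and 1 higher (23.2% and 24.6%), a count that dropped to 2 members without control library 2. ADM, EDN1 and VEGFA were called lower in both experiments, as were 4.77% of all tested genes. In bulk RNA, fewer cells that make a transcript and less of it per cell cannot be told apart.

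**Figure D2:**
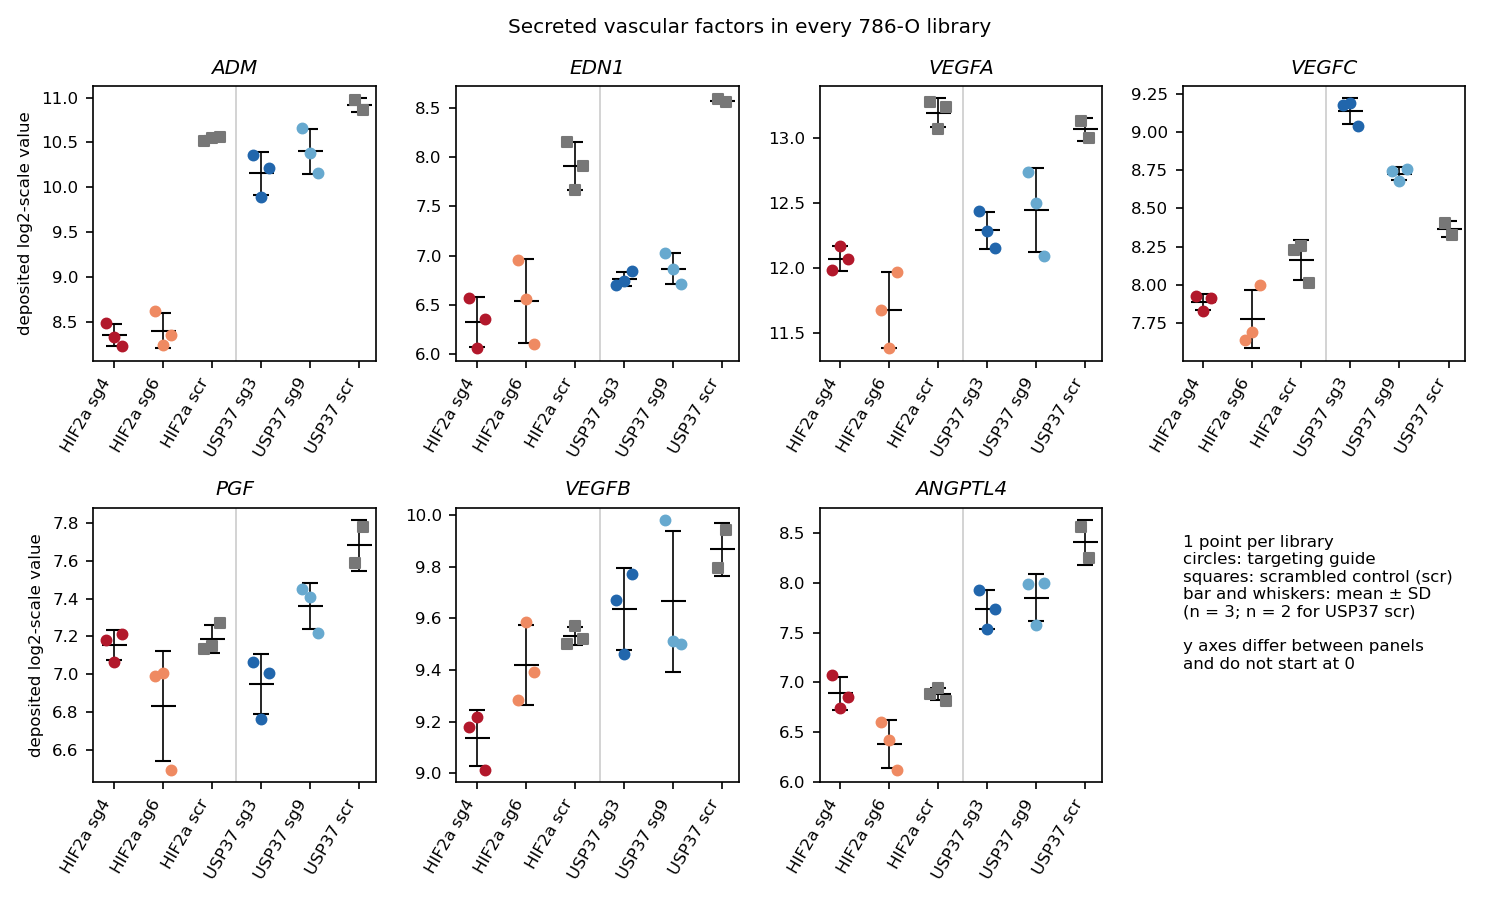
Deposited log2-scale value (y axis, with its own range in each panel) of each member in every library, by group (x axis). Circles are libraries with a targeting guide, squares are scrambled controls, and bars with whiskers are the mean ± SD (n = 3, or 2 for the USP37 control). ADM separates the HIF2a guides (8.24 to 8.63) from all other groups (9.89 and above), whereas VEGFC is highest with USP37 sg3.

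VEGFA, the main endothelial growth factor of the family, fell with all 4 guides. It was 11.98, 12.17 and 12.07 with HIF2a sg4, 11.68, 11.38 and 11.97 with sg6, and 13.27, 13.07 and 13.24 in their control. The 6 guide libraries all lay below the 3 controls, which 12.1% of tested genes did in this direction. The mean of the HIF2a guides was lower by 1.32 (difference -1.32, SE 0.12, limma adjusted p = 2.25e-08), or 2.5-fold on this scale. In the USP37 experiment VEGFA was 12.44, 12.28 and 12.15 with sg3, 12.74, 12.50 and 12.09 with sg9, and 13.13 and 13.00 in the control. Again the guide libraries lay below the control without overlap, as 21.2% of tested genes did. The difference was -0.70 (SE 0.14, limma adjusted p = 0.000448), a 1.62-fold lower value. For VEGFA the controls of the experiments were not called as different (USP37 minus HIF2a -0.13, SE 0.16, limma adjusted p = 0.546). The fall was smaller with the USP37 guides: the USP37 effect minus the HIF2a effect was 0.62 (SE 0.19, limma adjusted p = 0.0117). Of all genes 19.6% were called higher in that test, and the call of VEGFA did not hold without USP37 control library 3 (adjusted p = 0.0703).

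VEGFB, a ligand of FLT1, was not called in the mean of the guides in either experiment (-0.25, SE 0.10, limma adjusted p = 0.0746 with the HIF2a guides). With each experiment fitted alone, the mean of the HIF2a guides was called lower (limma adjusted p = 0.0462). It was also called without HIF2a sg6 library 2 (limma adjusted p = 0.032) and without USP37 sg9 library 1 (limma adjusted p = 0.0347). VEGFB ranged from 9.01 to 9.22 with HIF2a sg4, 9.28 to 9.59 with sg6 and 9.50 to 9.57 in their control. It was called lower with sg4 (-0.39, SE 0.12, limma adjusted p = 0.0198) and not with sg6 (-0.11, SE 0.12, limma adjusted p = 0.536), and the guides themselves were not called as different (sg6 minus sg4 0.28, limma adjusted p = 0.153). With sg4 library 3 left out its adjusted p was 0.101, and with library 2 of the control left out it was 0.0575. In the USP37 experiment VEGFB ranged from 9.46 to 9.77 with sg3, 9.50 to 9.98 with sg9 and 9.79 to 9.94 in the control (mean of the guides -0.22, SE 0.12, limma adjusted p = 0.154). Without USP37 sg9 library 1, the highest at 9.98, that difference was -0.30 (adjusted p = 0.027).

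PGF, the other ligand of FLT1, was lower with the USP37 guides and was not called with the HIF2a guides. It was 7.06, 6.77 and 7.01 with USP37 sg3, 7.45, 7.41 and 7.22 with sg9, and 7.59 and 7.78 in the control. All 6 guide libraries were below the control libraries, as for 21.2% of tested genes. The mean of the guides fell by 0.53 (SE 0.14, limma adjusted p = 0.00378), which did not pass without library 3 of the control (difference -0.43). PGF was called with sg3 (-0.74, SE 0.15, limma adjusted p = 0.000893) and not with sg9 (-0.32, SE 0.15, limma adjusted p = 0.0889). The guides differed: sg9 was above sg3 by 0.41 (SE 0.14, limma adjusted p = 0.0271, with 30.8% of all genes called between these guides), a call lost without sg3 library 2, sg9 library 1 or sg9 library 2 (adjusted p = 0.126, 0.0831 and 0.0738). With the HIF2a guides PGF ranged from 7.07 to 7.21 with sg4, 6.49 to 7.01 with sg6 and 7.13 to 7.27 in the control, and was not called (-0.19, SE 0.12, limma adjusted p = 0.236). By guide it was at -0.03 with sg4 and -0.36 with sg6 (SE 0.14, limma adjusted p = 0.0567). The sg6 difference was called without the trend, with quantile normalisation and without sg6 library 1 or 2. The USP37 effect minus the HIF2a effect was not called for PGF (-0.34, SE 0.18, limma adjusted p = 0.151). For PGF the USP37 control stood above that of the HIF2a experiment by 0.50 (SE 0.15, limma adjusted p = 0.0137, and 0.134 without USP37 control library 3). That places sg3 below both control means of 7.68 (USP37) and 7.19 (HIF2a), and sg9, at 7.36, between them.

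VEGFC, the lymphatic ligand, went opposite ways in the experiments. It was 9.17, 9.19 and 9.04 with USP37 sg3, 8.74, 8.68 and 8.76 with sg9, and 8.40 and 8.33 in the control. Every USP37 guide library was above the control, as for 20.0% of tested genes, and sg9 was below sg3 throughout, as for 20.2%. The mean of the USP37 guides rose by 0.56 (SE 0.11, limma adjusted p = 0.000273), and sg9 minus sg3 was -0.41 (SE 0.11, limma adjusted p = 0.00755). With the HIF2a guides it was 7.92, 7.83 and 7.91 with sg4, 7.64, 7.69 and 8.00 with sg6, and 8.22, 8.25 and 8.01 in the control. The nearest libraries of guide and control, sg6 library 3 and control library 3, were almost level. The mean of the HIF2a guides was lower (-0.33, SE 0.09, limma adjusted p = 0.00948), which did not pass when library 1 of the control (adjusted p = 0.0575) or its library 2 (adjusted p = 0.0573) was left out, and within replicate number 3 the difference was -0.06. VEGFC was called lower with HIF2a sg6 (-0.39) and not with sg4 (-0.27, limma adjusted p = 0.066). It was called higher with USP37 sg3 (0.77) and sg9 (0.36). The sg9 call was lost without USP37 control library 2 (difference 0.40) or 3 (0.32). The test of the difference between the experiments gave 0.90 (SE 0.14, limma adjusted p = 4.86e-05). The controls were not called as different (0.20, SE 0.12, limma adjusted p = 0.187). Over all tested genes 6.82% were called in opposite directions in the experiments.

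ADM, the vasodilator precursor, had the largest difference among the members in the HIF2a experiment. It was 8.48, 8.33 and 8.24 with sg4, 8.63, 8.24 and 8.35 with sg6, and 10.51, 10.55 and 10.56 in the control. The guide libraries were all far below the controls, and the guides overlapped each other. For 12.1% of tested genes all guide libraries lay below the control. The mean of the guides fell by 2.16 (SE 0.11, limma adjusted p = 2.21e-12), or 4.48-fold, and 0.248% of tested genes had a lower difference. In the USP37 experiment ADM was 10.36, 9.89 and 10.21 with sg3, 10.66, 10.39 and 10.16 with sg9, and 10.97 and 10.86 in the control. These 6 libraries also lay below their control, as for 21.2% of tested genes, but nearer to it. The difference was -0.64 (SE 0.13, limma adjusted p = 0.000517), or 1.56-fold, and the USP37 effect minus the HIF2a effect was 1.53 (SE 0.17, limma adjusted p = 6.92e-07). The USP37 control was above the HIF2a control by 0.37 (SE 0.15, limma adjusted p = 0.0448), a call lost in 8 of the 17 fits that leave out a library. Set beside the HIF2a control mean of 10.54, the USP37 guides had means of 10.16 and 10.40, with the highest sg9 library above it.

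EDN1, the vasoconstrictor precursor, fell with all 4 guides. It was 6.57, 6.06 and 6.36 with HIF2a sg4, 6.96, 6.56 and 6.10 with sg6, and 8.16, 7.67 and 7.91 in their control. It was 6.70, 6.74 and 6.84 with USP37 sg3, 7.03, 6.87 and 6.71 with sg9, and 8.59 and 8.56 in that control. All 12 guide libraries lay below all 5 control libraries of either experiment, and the share of all genes that did so was not counted. Against the control of their own experiment, the guide libraries all lay lower for 12.1% (HIF2a) and 21.2% (USP37) of tested genes. The difference was -1.48 with the HIF2a guides (SE 0.15, limma adjusted p = 1.35e-07), or 2.79-fold. For the USP37 guides it was -1.76 (SE 0.18, limma adjusted p = 1.78e-07), or 3.39-fold, and 0.216% of tested genes had a lower difference. The difference between the experiments was not called (-0.28, 95% confidence interval -0.77 to 0.21, limma adjusted p = 0.366), an interval that still allows unequal falls. The USP37 control exceeded that of the HIF2a experiment by 0.66 (SE 0.20, limma adjusted p = 0.0113), a call lost without HIF2a control library 2 or either USP37 control library. EDN1 lies near the floor with the guides, so these differences understate the change on the scale of counts. On an alternative scale that undoes the flattening under the usual form of the transformation, EDN1 stood at -2.01 with the HIF2a guides (SE 0.22) and -2.23 with the USP37 guides (SE 0.25).

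ANGPTL4 separated the experiments more than the guides. It was 6.60, 6.42 and 6.12 with HIF2a sg6, 7.07, 6.74 and 6.86 with sg4, and 6.89, 6.94 and 6.82 in their control. All 3 sg6 libraries and sg4 library 2 lay below every control library. The mean of sg6 fell by 0.50 (SE 0.15, limma adjusted p = 0.0163, where 13.8% of genes were called lower with that guide). The sg4 value was level with the control (0.01, SE 0.15, 95% confidence interval -0.31 to 0.32), and the guides differed (sg6 minus sg4 -0.51, SE 0.15, limma adjusted p = 0.0369, with 9.22% of genes called). Both of these calls were lost without sg6 library 3 (adjusted p = 0.0889 and 0.164) and without the 3 libraries furthest from their groups (adjusted p = 0.498 and 0.552), and that between the guides also without any of the sg4 libraries. In the USP37 experiment ANGPTL4 was 7.93, 7.53 and 7.74 with sg3, 7.99, 7.58 and 8.00 with sg9, and 8.57 and 8.25 in the control. The guide libraries were all lower, as for 21.2% of tested genes. The mean of the guides fell by 0.62 (SE 0.15, limma adjusted p = 0.00253), which did not pass without library 2 of the control (difference -0.46). For ANGPTL4 the USP37 effect minus the HIF2a effect was not called (-0.37, SE 0.20, limma adjusted p = 0.152). The USP37 control exceeded the HIF2a control by 1.53 (SE 0.17, limma adjusted p = 8.83e-07, where 40.5% of genes were called between the controls), so the USP37 guides, though below their own control, were above every library of the HIF2a experiment. Control and experiment cannot be told apart in that difference. An antisense gene, RAB11B-AS1, overlaps exons of ANGPTL4 in GENCODE, and the library kit does not mark strand. Its own value stayed between 5.87 and 6.34 and did not pass the filter. VEGFA is likewise overlapped by an antisense gene, AL136131.3, which was not analysed here.

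**Figure D3:**
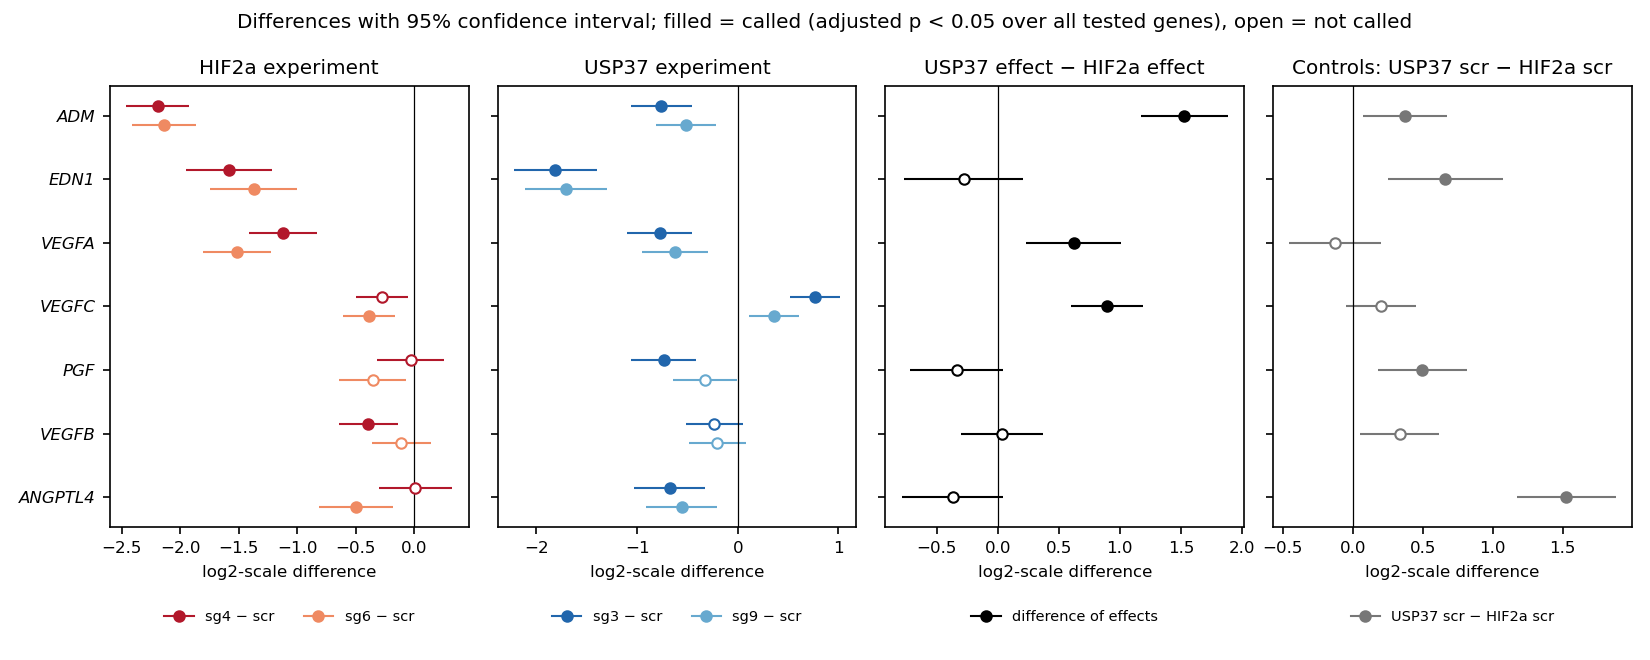
Log2-scale difference (x axis) of each member, with 95% confidence intervals, for each guide against its own control, for the USP37 effect minus the HIF2a effect, and for the USP37 control minus the HIF2a control. Filled points passed the test over all genes and open points did not. ADM, EDN1 and VEGFA lie left of 0 with all 4 guides, VEGFC lies on opposite sides in the experiments, and ANGPTL4 has the largest difference between controls (1.53).

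EPAS1 was lower with sg4 than with sg6 (sg6 minus sg4 0.81, SE 0.12, limma adjusted p = 0.000154). Over the same guides ADM differed by 0.05 (95% confidence interval -0.22 to 0.32, limma adjusted p = 0.845) and EDN1 by 0.21 (95% confidence interval -0.16 to 0.58, limma adjusted p = 0.501). VEGFA was at -0.40 (95% confidence interval -0.69 to -0.10, limma adjusted p = 0.0804), lower in every sg6 library than in any sg4 library, and was not called. That separation held for 13.4% of tested genes. VEGFA was called without sg6 library 3 (-0.54, adjusted p = 0.0152) and without USP37 sg9 library 3 (adjusted p = 0.0418). Of the members, ANGPTL4 alone was called between these guides, where 9.22% of all tested genes were called. For VEGFB, VEGFC and PGF the difference was 0.28, -0.11 and -0.32. Between the USP37 guides VEGFC and PGF were called, in opposite directions, where 30.8% of all tested genes were called. USP37 itself was not called (sg9 minus sg3 -0.20, limma adjusted p = 0.304).

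In the comparisons given here, every guide library lay on the same side of every library of its control. The direction within replicate numbers was therefore fixed in advance, and the values show size alone. For numbers 1, 2 and 3 of the HIF2a experiment the guides minus the control gave -1.96, -2.27 and -2.27 for ADM. They gave -1.45, -1.29 and -1.22 for VEGFA and -1.40, -1.36 and -1.68 for EDN1. For numbers 2 and 3 of the USP37 experiment they gave -0.83 and -0.68 for ADM, -0.74 and -0.88 for VEGFA, and -1.79 and -1.78 for EDN1. VEGFC was at 0.53 and 0.57 in the USP37 experiment. ANGPTL4 was at -1.01 and -0.38 and PGF at -0.50 and -0.66 there.

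The members did not share 1 pattern over the 17 libraries. Pearson's r, given as a description because the points share libraries and groups, was 0.82 between VEGFA and ADM, 0.81 between VEGFA and EDN1 and 0.75 between ADM and EDN1. It was 0.06 between VEGFC and EDN1 and 0.06 between VEGFC and PGF. The tested genes most like ADM were GAL3ST1, a sulfotransferase of glycolipid synthesis (r = 0.987), and TGFA, a ligand of the EGF receptor (r = 0.984). Those most like EDN1 were IGFBP3, which binds insulin-like growth factors (r = 0.954), and CA12, a carbonic anhydrase (r = 0.951). VEGFA was most like POU5F1, whose reads may be shared with near-identical pseudogenes (r = 0.949), and CAMK2N1, an inhibitor of a calmodulin kinase (r = 0.943). VEGFC was most like AP3M1, an adaptor subunit (r = 0.971), and the non-coding UCA1 (r = 0.970). ANGPTL4 was most like SGCE (r = 0.963) and PRKAG2, an AMP kinase subunit (r = 0.961), VEGFB like SYAP1 (r = 0.901) and HOXA3 (r = 0.898), and PGF like the kinesin KIF22 (r = 0.90) and C12orf75 (r = 0.851).

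The main receptors of these factors lay near the floor of the scale. Of 6 further VEGF family genes, the receptors FLT1, KDR and FLT4 and the ligand VEGFD did not pass the filter, with group means no higher than 5.76. The co-receptors NRP1 and NRP2 passed. Both were called higher with the HIF2a guides (NRP1 0.28, SE 0.10, limma adjusted p = 0.0401, and NRP2 0.25, SE 0.09, limma adjusted p = 0.0302). By guide, NRP1 was called with sg6 (0.38) and not with sg4 (0.18), and NRP2 with sg4 (0.42) and not with sg6 (0.09). Neither was called without sg4 library 3, sg6 library 1 or control library 1 or 3, or with each experiment fitted alone. Only 1 of them was called with the replicate block, without the trend, with quantile normalisation, without sg4 library 2 and without sg6 library 3. In the mean of the USP37 guides NRP2 was higher (0.56, SE 0.10, limma adjusted p = 0.000145) and NRP1 was at 0.21 (limma adjusted p = 0.152). Both stood higher with sg3 (NRP2 0.86 and NRP1 0.46, both called) than with sg9 (0.27 and -0.04, neither called), and sg9 minus sg3 was called for both (-0.59 and -0.49). Of the adrenomedullin system 4 of 11 genes were tested, and the receptor CALCRL and its partners RAMP1, RAMP2 and RAMP3 were not, with group means from 5.12 to 6.11. With the HIF2a guides 2 of these 4 were lower and 0 higher (median -0.44), against 14.5% and 16.1% of all genes. ACKR3, a scavenger receptor of CXCL12 that also binds adrenomedullin, fell by 3.12 (SE 0.13, limma adjusted p = 6.31e-14). Its group means were 5.83 with sg4 and 5.29 with sg6, near the floor, and 8.68 in the control, and its USP37 control lay below the HIF2a control by 1.42. MME, a membrane peptidase that cleaves small vasoactive peptides, fell by 1.09 with the HIF2a guides (SE 0.14, limma adjusted p = 2.17e-06). In the USP37 experiment, where 21.9% of all genes were called lower and 22.4% higher, 2 of the 4 were lower and 0 higher (median -0.52). These were PAM, which amidates adrenomedullin (-0.78, SE 0.10, limma adjusted p = 2.69e-06), and MME (-0.78, SE 0.16, limma adjusted p = 0.00052). Between the controls PAM differed by 0.64 and MME by 1.37, with the USP37 control the higher for each. With the stricter filter ACKR3 was not tested, 1 of the other 3 genes was lower with the HIF2a guides and their median was 0.21. The count of higher genes with those guides was 2 without HIF2a sg6 library 2, without USP37 sg9 library 1 and with array weights, and 1 without any of the sg3 libraries, with library medians centred and with each experiment fitted alone.

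In the endothelin system 2 of 6 genes were tested, the endothelin-converting enzymes ECE1 and ECE2, and 0 were called in either experiment. ECE1 was at -0.20 with the HIF2a guides (limma adjusted p = 0.0662) and 0.05 with the USP37 guides, and ECE2 at 0.18 and 0.28. At an unadjusted p, ECE1 reached 0.0219 with the HIF2a guides, and it was called lower without HIF2a sg4 library 3, sg6 library 3 or control library 1. EDN2, another endothelin, did not pass the filter, with means of 5.47 with sg4, 5.56 with sg6 and 7.01 in the HIF2a control. Of 13 angiopoietins, angiopoietin-like proteins, TIE receptors and lipoprotein lipase, ANGPTL6 and LPL were tested. LPL, the enzyme that ANGPTL4 inhibits, was lower in the mean of the HIF2a guides (-0.46, SE 0.13, limma adjusted p = 0.00871), which did not pass without HIF2a control library 2 or 3. It was lower with sg6 (-0.86) and not called with sg4 (-0.07, limma adjusted p = 0.782), and the guides differed (sg6 minus sg4 -0.79, limma adjusted p = 0.00183). ANGPTL6 was not called. In the USP37 experiment both genes had group means between 5.74 and 6.08, near the floor, where a difference could hardly be seen, and neither was called.

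The list of other secreted pro-angiogenic ligands, which also holds matrix proteins such as EFEMP1 and the protease PLAU, was divided. Of 11 tested, 4 were higher and 2 lower with the HIF2a guides (median 0.24), and 5 were higher and 4 lower with the USP37 guides (median 0.12). The shares over all genes were 16.1% higher and 14.5% lower with the HIF2a guides, and 22.4% higher and 21.9% lower with the USP37 guides. Lower in both were PDGFB, a platelet-derived growth factor (-1.31, SE 0.11, with the HIF2a guides and -0.61, SE 0.13, with the USP37 guides), and APLN, which encodes the vasoactive peptide apelin (-1.17, SE 0.14, and -0.53, SE 0.16). EFEMP1, a matrix protein, was higher in both (1.33, SE 0.11, and 1.19, SE 0.13). The fibroblast growth factor FGF2 was higher with the HIF2a guides (0.84, SE 0.11) and was at -0.11 with the USP37 guides, where it was not called. Angiogenin (ANG), a secreted ribonuclease, was higher in the mean of the HIF2a guides (0.45, SE 0.12) and lower with the USP37 guides (-0.89, SE 0.14). With sg4 it was called (0.73) and with sg6 it was not (0.17), and sg6 minus sg4 was called (-0.56, limma adjusted p = 0.0115). FGF2 overlaps an antisense gene and ANG shares its first exons with RNASE4, so how reads were assigned to them is uncertain. The matricellular proteins CTGF (1.80, SE 0.15) and CYR61 (1.70, SE 0.14) rose with the USP37 guides. Their values with the HIF2a guides were 0.02 and 0.25 and were not called. The protease PLAU was higher in both (0.56, SE 0.10, and 0.86, SE 0.12), the chemokine CXCL8 was higher with the USP37 guides (0.53, SE 0.09) and PDGFC was lower with them (-0.35, SE 0.10). By guide, APLN was called with sg3 (-0.69) and not with sg9 (-0.38), and CXCL8 (0.86) and PDGFC (-0.50) with sg9 and not with sg3 (0.21 and -0.21). CXCL8 was higher with HIF2a sg4 (0.36) and lower with sg6 (-0.53), both called. The limma adjusted p-values of the called differences of the guide means ranged from 4.34e-09 to 0.0117. Between the controls (USP37 minus HIF2a), CTGF differed by -1.12, CYR61 by -0.94, APLN by -0.61, EFEMP1 by -0.42, PDGFB by -0.40, FGF2 by 0.41, ANG by 0.76 and CXCL8 by -0.85, all called. The other 3 of the 11, PDGFA, PDGFC and PLAU, were not called, and 40.5% of all tested genes were called between the controls. Without USP37 control library 3 the count lower with the USP37 guides was 2.

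Of 11 tested secreted angiogenesis inhibitors, 5 were higher and 0 lower with the HIF2a guides (median 0.34), beside 16.1% and 14.5% of all genes. They were COL18A1, the precursor of endostatin (1.11, SE 0.09), the semaphorin SEMA3A (0.78, SE 0.11), isthmin (ISM1, 0.70, SE 0.09), the basement membrane collagen COL4A2 (0.58, SE 0.10) and thrombospondin 1 (THBS1, 0.36, SE 0.11). Their limma adjusted p-values ranged from 2.4e-09 to 0.0139. With the USP37 guides 4 were higher and 3 lower (median -0.28), beside 22.4% and 21.9% of all genes. The protease ADAMTS1 rose by 1.49 (SE 0.12), THBS1 by 1.09 (SE 0.12) and SEMA3A by 0.71 (SE 0.12), while the semaphorin SEMA3F fell by 1.07 (SE 0.13). COL18A1 and ISM1 were lower there (-0.48, SE 0.10, and -0.41, SE 0.10), against their rise with the HIF2a guides. By guide, THBS1 was called with sg6 (0.42) and not with sg4 (0.30), and ISM1 with sg9 (-0.60) and not with sg3 (-0.21). Between the controls (USP37 minus HIF2a), 8 of the 11 were called lower and 2 higher, where 40.5% of all tested genes were called. ADAMTS1 differed by -1.51, THBS1 by -0.72, ISM1 by -0.74, COL4A2 by -0.58 and COL18A1 by -0.37. SEMA3A differed by 0.41, and SEMA3F was not called. The count lower with the USP37 guides was 5 without the 3 libraries furthest from their groups, with quantile normalisation, with array weights, with each experiment fitted alone and without HIF2a sg6 library 2 or 3.

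**Figure D4:**
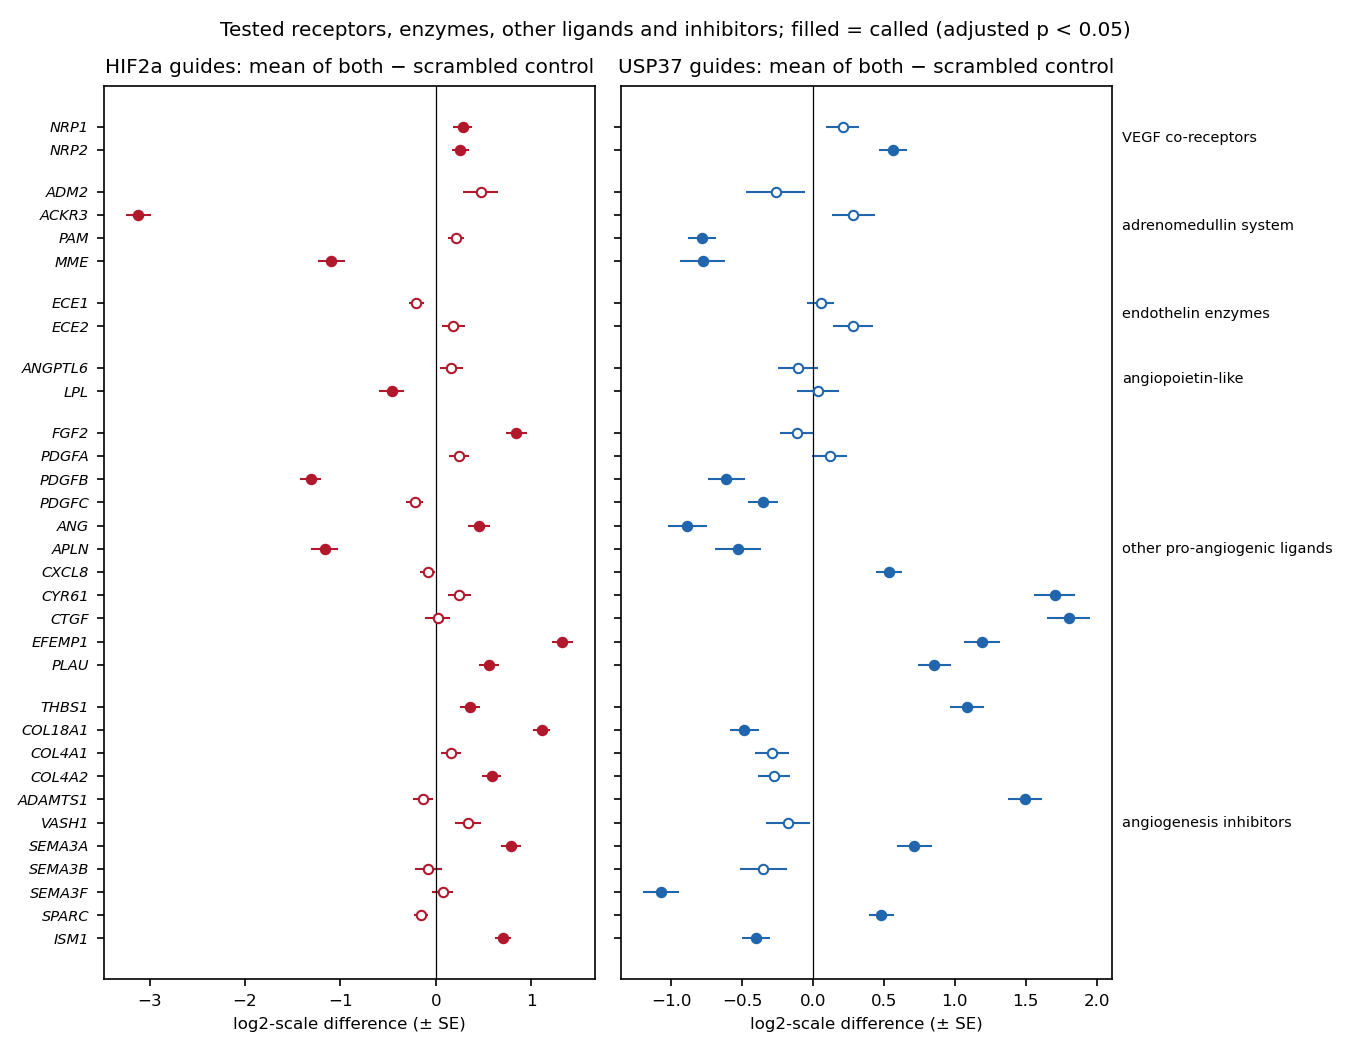
Log2-scale difference (x axis, ± SE) of each tested receptor, enzyme, other ligand and inhibitor, in the mean of the HIF2a guides (left) and of the USP37 guides (right) against the scrambled control of that experiment. Filled points passed the test over all genes; the x axes differ. ACKR3 lies furthest left with the HIF2a guides (-3.12), and CTGF and CYR61 furthest right with the USP37 guides (1.80 and 1.70).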

How the data were processed

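RNA of 786-O cells was sequenced with the TruSeq RNA v2 kit, per the labels' protocols. The deposited table gives, for 27315 genes and 17 libraries, the authors' log2-like values after variance stabilisation and batch correction. In the submitters' processing notes stand cutadapt, STAR 2.5.2b, Salmon, DESeq2 and hg19, without roles or order. Neither the annotation nor the batch variable is given in the sources used here. The means of libraries numbered 1, 2 and 3 agree for every gene to 6.39e-14, which shows that replicate number was taken out. The fit does not count the degrees of freedom this used, so p-values may be too small. The USP37 control has no library 1, so this removal was not balanced over the groups. Differences that use that control may themselves be shifted. ADM, for example, was at -0.64 with the USP37 guides in the fit and at -0.83 and -0.68 within numbers 2 and 3. Beyond the values within numbers and the fit with the replicate block, given below, the size of any shift was not tested. Depth is unknown, and no interval that needs it is given.

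A single model held all 6 group means (limma 3.58.1 in R 4.3.3, empirical Bayes with trend, 11 residual degrees of freedom). Benjamini-Hochberg adjustment ran over the 12484 tested genes of each contrast, after a check on simulated data. The genes named are the members, the targeted genes, markers, up to 4 called genes of each of 6 lists by size of difference, genes needed for a control or a count, and the 2 genes most like each member. EDN2, TIE1, PECAM1, NEFL and the antisense gene were chosen after their values were seen. The members and lists were chosen with earlier results of these data known, and 1 further gene was left out of the list of pro-angiogenic ligands and is not reported here. Alternatives were other filters, no trend, array weights, separate fits, other scalings, the inverse transformation, the replicate block and libraries left out.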

Additional observations from a re-analysis of the deposited data

Results flagged for a closer look

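For 3 members the difference of the guides from their control was not the same in the 2 experiments by the test of that difference, the USP37 effect minus the HIF2a effect. It was 1.53 (SE 0.17, limma adjusted p = 6.92e-07) for ADM, which was lower with the guides of both experiments (6 of 6 guide libraries below the control in each). For VEGFA it was 0.62 (SE 0.19, limma adjusted p = 0.0117), again with 6 of 6 guide libraries below the control in each experiment. For VEGFC it was 0.90 (SE 0.14, limma adjusted p = 4.86e-05), with 6 of 6 guide libraries above the control in the USP37 experiment and 6 of 6 below it in the HIF2a experiment. Over all tested genes 19.6% were called higher in this test. All guide libraries lay below the control for 12.1% of tested genes with the HIF2a guides and 21.2% with the USP37 guides. With the USP37 guides they all lay above it for 20.0%. The guides and the experiment they belong to have separate controls, and the part of the controls in these differences was not tested.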

How the results depend on the processing

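Apart from single libraries left out, 656 of 676 values of the members kept their direction and their side of the threshold, 10 lost a call, 7 gained one and 3 reversed. With 1 library left out, 1130 of 1190 did so, 34 lost a call, 16 gained one and 10 reversed. ADM, EDN1 and VEGFA were called lower with the guides of both experiments, and VEGFC higher with the USP37 guides, under each alternative that tested them. EDN1 does not pass the stricter filter.

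With the replicate block ADM was -2.16 with the HIF2a guides and -0.72 with the USP37 guides, and the count of members called was the same in every comparison. Same-numbered libraries of different groups had a median correlation of -0.15, with the number term already removed by the authors, so the numbers were not shown to pair the libraries. The 1 member called between the HIF2a guides became 0 with no filter, with array weights (whose estimation stopped before convergence) and when the 3 most distant libraries were left out. The 2 members called between the USP37 guides became 1 with no filter and 1 with quantile normalisation. With 1 library left out, the members called ranged from 0 to 2 between the HIF2a guides, 1 to 2 between the USP37 guides, 2 to 6 with USP37 sg9 and 1 to 5 between the controls. The cause was not tested.

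Every reversal was of a value that was not called. ANGPTL4 with HIF2a sg4 was -0.0095 with array weights and -0.039 with quantile normalisation, and ranged from -0.082 to 0.084 with 1 library left out. PGF with that guide ranged from -0.062 to 0.012, ADM between the HIF2a guides from -0.057 to 0.14 and VEGFB between the USP37 guides from -0.13 to 0.11. For VEGFB the USP37 effect minus the HIF2a effect was -0.010 with array weights and ranged from -0.043 to 0.11. Where a left-out library leaves a group with 1 library, its spread is taken from the other groups.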
